A study of Mus musculus with 4 samples.

Results

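Monocyte progenitors of mouse bone marrow were described here in animals with and without B-cell acute lymphoblastic leukemia (B-ALL). A cell was taken as one of them when it held at least as many unique molecular identifiers (UMIs, each counting 1 captured RNA molecule) as the shallowest cell of the control group, at least 1 UMI of at least 3 of 7 markers, and none of Dntt, Ms4a2 and Pf4, which mark lymphoid, basophil or mast, and platelet fates. The 7 markers were F13a1, Ly86, Ms4a6c, Ccr2, Irf8, Csf1r and Tifab. This left 2265 cells of 11764 in all (11574 at that depth), 1407 from the PBS control and 858 from the B-ALL environment, whose recipients are called B-ALL hosts below.

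Hosts of both groups were wild-type CD45.1 mice. In the B-ALL environment they had been given 150000 leukemic cells through the tail vein, taken from the lymph node of a single diseased donor of genotype Cd45.2+/+ Ebf1+/- Pax5+/-, so that 1 tumor stands for the disease. The PBS control had been given phosphate-buffered saline instead. Both were left for 3 weeks, and the labels used here give no age. Host marrow cells that were KIT+, negative for lineage markers, CD45.2- and CD45.1+ were then sorted for droplet RNA sequencing of transcript 3' ends. The labels name 2 samples per group, but cells carry only a group prefix, so each group counted as 1 sample and no difference below has a replicate check or a p-value.

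Monocytes arise in the marrow from granulocyte-monocyte progenitors, which can also form neutrophils. Irf8 and PU.1 (gene Spi1) direct the monocyte branch, Cebpe the granule-bearing neutrophil branch, and the receptor of macrophage colony-stimulating factor, encoded by Csf1r, carries the growth signal of the monocyte line. Ccr2 is the chemokine receptor by which monocytes leave the marrow, and KIT is lost as progenitors mature.

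In these cells 21780517 UMIs were counted in the PBS control and 18343009 in B-ALL hosts. The median depth was 15148 and 20018 UMIs per cell, with 4506 and 5134 genes detected. Mitochondrially encoded RNA made up 3.44% and 4.17% of UMIs, and over all other cells 3.61% and 5.44%. A barcode occurred in both groups 18 times, in 36 cells of which 7 were monocyte progenitors. A further 190 cells fell short of the minimum depth, all of them from B-ALL hosts, and 0 of them had 3 markers, which allows up to 1.92% of them to meet the marker rule (exact Clopper-Pearson interval). At their median of 2273 UMIs markers are easily missed, so this does not limit how many were monocyte progenitors.

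Monocyte progenitors made up 23.9% of the 5882 control cells (95% exact interval 22.83 to 25.03) and 15.1% of the 5692 cells of B-ALL hosts (14.15 to 16.03). The ratio of the shares was 0.630, with an interval of 0.578 to 0.687 that covers counting error only, like every interval here. With every cell thinned to the minimum depth before the rule was applied, the shares were 15.5% and 8.70% and the ratio 0.562. The sort kept cells with surface KIT, and Kit RNA in the monocyte progenitors was itself lower in B-ALL hosts (172.5 against 264 counts-per-million, CPM, taken over all UMIs of the set), so the gate can set these shares, and its part was not tested. Leaving out any 1 of the 7 markers gave ratios of 0.610 to 0.647.

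The label was checked against markers of neighbouring lineages. Of 9 neutrophil markers 8 had a mean of at least 10 CPM in the monocyte progenitors, and Mpo, which encodes myeloperoxidase, had a UMI in 99.9% of them in the control and 99.4% in B-ALL hosts. Elane, which encodes neutrophil elastase, had a UMI in 94.4% and 90.6%, and Cebpe in 31.0% and 26.7%. Both granule genes also gave UMIs in erythroid cells, which should lack them: at that thinned depth, Elane was seen in 26.7% and 5.13% of erythroid cells against 83.9% and 76.6% of monocyte progenitors. The 7 macrophage markers measured summed to 11.8 and 11.2 CPM, and the 9 dendritic markers measured to 454 and 478 CPM. Of the latter, Cd74, H2-Aa, H2-Eb1, Clec9a and Zbtb46 lay between 0.137 and 2.08 CPM. The other 4 were higher: Bst2, an interferon-inducible surface protein, was at 241 and 237 CPM, Tcf4, a factor of plasmacytoid dendritic cells, at 112 and 135 CPM, Flt3 at 57.3 and 65.8 CPM, and the class II gene H2-Ab1 at 38.6 and 34.6 CPM. At the thinned depth Tcf4 was seen in 30.1% and 32.8% of monocyte progenitors and 32.2% and 33.3% of erythroid cells. Flt3 was seen in 15.99% and 17.0% against 1.77% and 0.855%, so of this pair Flt3 alone exceeded the erythroid share. Of the B-lineage markers, Igll1 and Igkc lay between 0.183 and 1.37 CPM and Vpreb1 at 3.89 and 1.91 CPM, while Ighm was at 157 and 147 CPM and Cd79b, a chain of the B cell receptor complex, at 50.6 and 63.2 CPM (log2 fold 0.32, positive in each of the 5 classes of marker number described below). At the thinned depth Cd79b was seen in 14.7% and 18.2% of monocyte progenitors and 4.62% and 10.5% of erythroid cells. The monocyte progenitors thus met the monocyte rule while carrying the granule program, and only 21 control cells and 12 cells of B-ALL hosts had no UMI of Cebpe, Elane or the dendritic progenitor receptor Flt3.

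The monocyte progenitors formed a graded set. Of the control members 19.4% had 3 markers, 14.1% had 4, 14.4% had 5, 22.8% had 6 and 29.4% had all 7, and in B-ALL hosts the percentages were 20.6, 15.2, 13.5, 17.0 and 33.7. Just outside the rule lay 434 and 313 cells with 2 markers, and just inside it 273 and 177 cells with 3. Irf8 was at 74.9 and 80.1 CPM in cells with 2 markers, at 136 and 94.8 CPM with 3, and at 702 and 690 CPM with 7, where the first value of each pair is the control. Marker levels climb here because the rule counts them, so this is a description.

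Genes outside the rule followed the same gradient. Ly6c2, which encodes the Ly6C antigen of inflammatory monocytes, went from 265 CPM with 3 markers to 965 with 7 in the control and from 159 to 636 in B-ALL hosts. Cx3cr1, a chemokine receptor of patrolling monocytes, went from 7.96 to 54.8 CPM and from 9.25 to 61.8. Ighm, the heavy chain constant region gene of IgM, went from 49.9 to 229 CPM and from 29.4 to 222. In the other direction, Cebpe went from 136 to 13.5 CPM in the control and from 93.5 to 13.5 in B-ALL hosts, and Kit from 357 to 218 and from 219 to 133. Hlf, a stem cell transcription factor, went from 56.0 to 11.9 CPM and from 69.6 to 16.5. Cells with all 7 markers thus had the highest levels of Ly6c2, Cx3cr1 and Ighm and the lowest of Cebpe, Kit and Hlf in both groups. Deeper cells can show more markers, and the median depth was 13238 UMIs with 3 markers and 16926 with 7 in the control, and 16217 and 24657 in B-ALL hosts; its part was not tested.

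**Figure D1:**
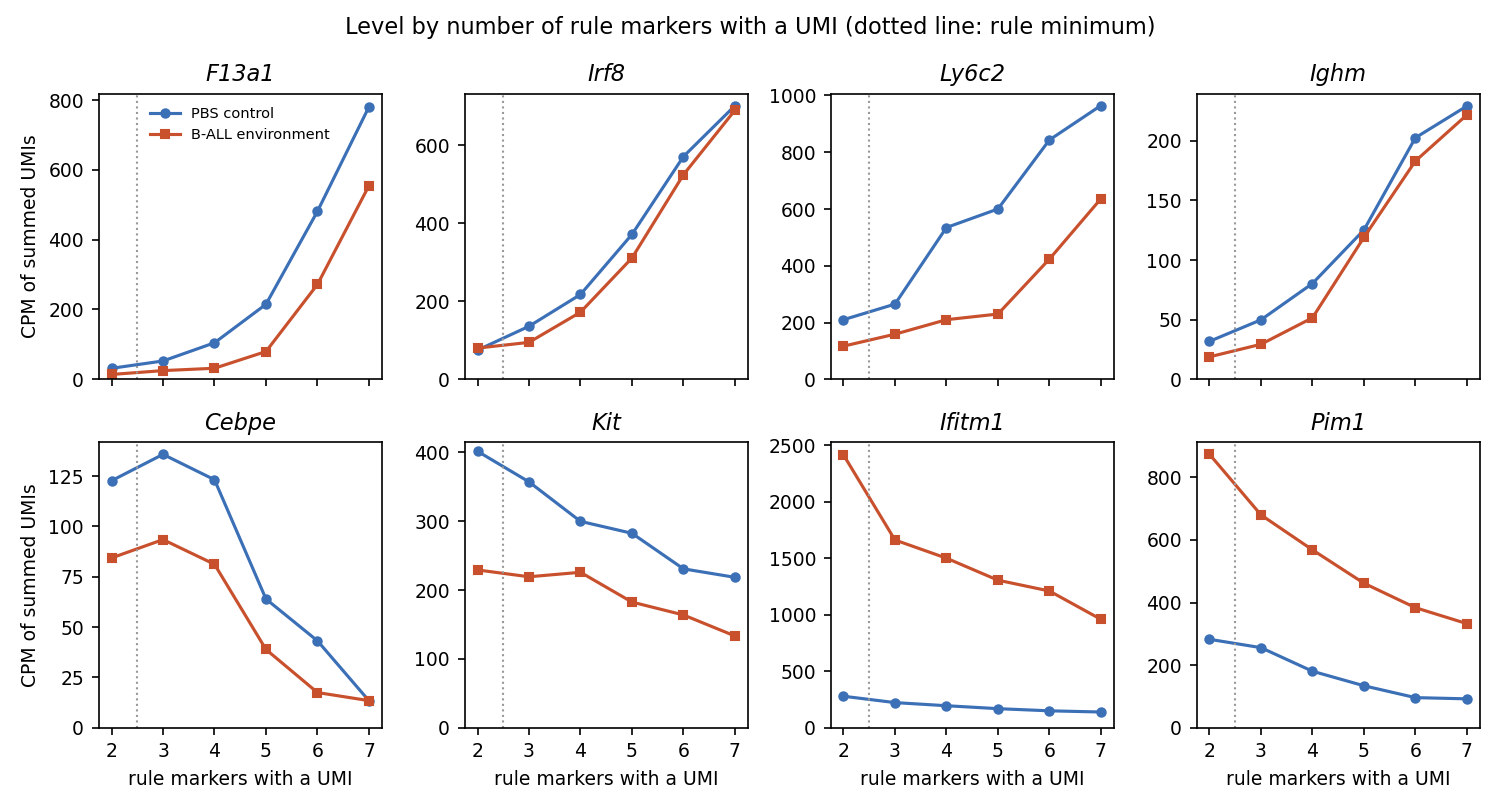
Level (CPM, y axis from 0) of 8 genes in cells grouped by how many of the 7 rule markers had a UMI (x axis), in the PBS control (circles) and B-ALL hosts (squares); each point is a sum over the cells of 1 group, and the dotted line is the minimum of the rule. F13a1, Irf8, Ly6c2 and Ighm climb and Cebpe, Kit, Ifitm1 and Pim1 decline towards 7 markers in both groups, and Ifitm1 with 7 markers in B-ALL hosts (960 CPM) still lies above every control point.

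Against all other cells, the genes most concentrated in monocyte progenitors included 10 outside the rule among the leading 15. Itga1, an integrin that binds collagen, was at 15.2 CPM in the monocyte progenitors and 1.53 CPM elsewhere. Mefv, the pyrin inflammasome sensor, was at 24.5 and 2.70 CPM, and Cybb, the catalytic subunit of the phagocyte oxidase, at 34.4 and 4.34 CPM. Ifi209, an interferon-inducible gene, was at 81.8 and 10.4 CPM, Nrp1, a semaphorin and VEGF co-receptor, at 18.8 and 2.43 CPM, and Ly6c2 at 572 and 80.2 CPM. The rest were Gm15987, AI839979, Gpr141 and Ms4a4c. Between the groups Itga1 was lower, at 21.8 and 7.38 CPM (control first, log2 fold -1.56), and Gm15987 higher, at 11.9 and 22.3 CPM (0.91). Because the cells were picked by monocyte genes, these values describe the set.

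Between the groups, 8308 genes had a mean of at least 10 CPM in monocyte progenitors. Of these, 102 genes (1.23%) were at least 1.5-fold higher in B-ALL hosts and 142 (1.71%) at least 1.5-fold lower, and the median log2 fold of all of them was 0.02. At a fold of 2 the numbers were 23 (0.277%) and 46 (0.554%). Of the 8308 genes 4415 had a positive fold and 3893 a negative one. Calls and signs in every list below are to be read beside these numbers at 1.5-fold. The same rule called 3.03% higher and 3.48% lower of 8337 genes in neutrophil progenitors (cells with a UMI of Cebpe outside the rule), and 4.92% and 3.47% of 8731 genes in early granulocyte-monocyte progenitors (cells with Cebpa and Ccl9 but no Cebpe). Those sets hold fewer UMIs, 2508323 to 5062577 per group, and the part of counting noise in their larger percentages was not tested. Over all other cells, with far more UMIs, 5.02% and 3.41% of 8887 genes passed.

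**Figure D2:**
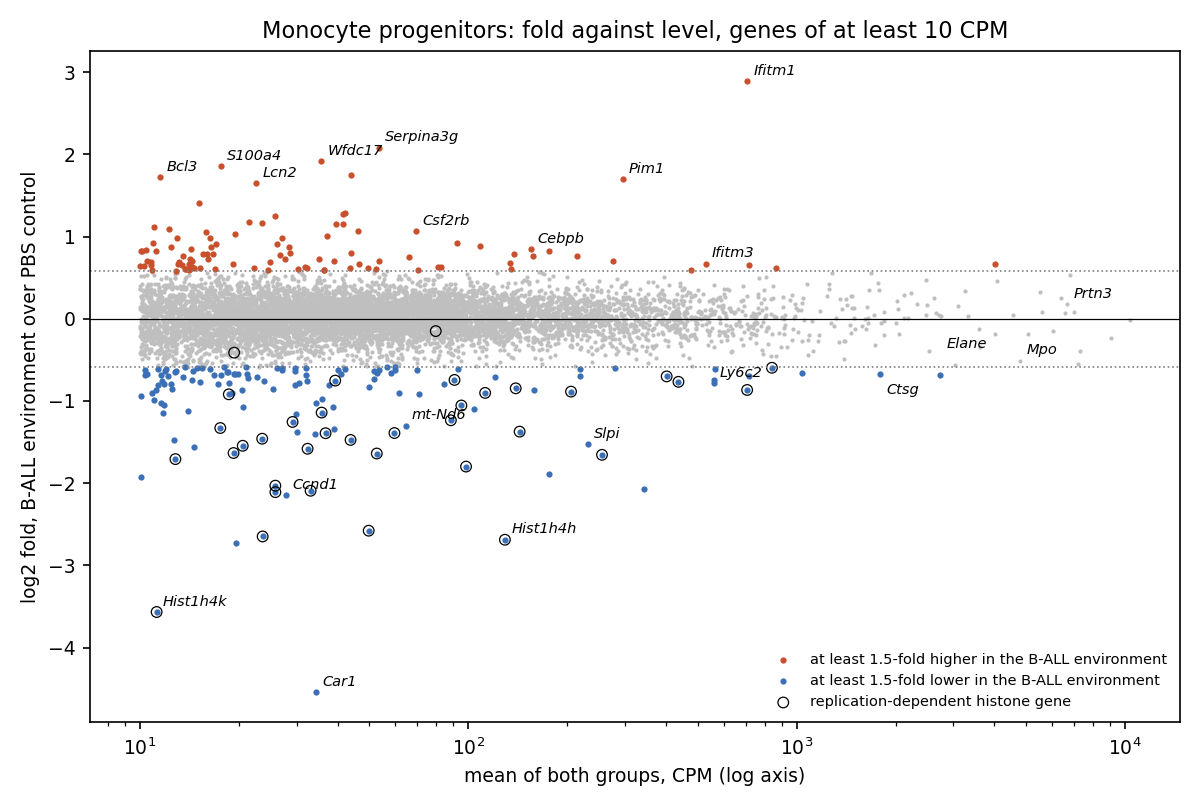
Log2 fold, B-ALL hosts over PBS control (y axis), against the mean level of both groups in CPM (x axis, log scale) for 8308 genes of the monocyte progenitors; colored points are past 1.5-fold (dotted lines) and open circles mark replication-dependent histone genes. Ifitm1 lies highest at 2.89, and 34 of 36 histone genes lie below the lower dotted line.

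The highest fold was that of Ifitm1, an interferon-induced membrane protein that restricts virus entry. It was at 168 CPM in the PBS control and 1244 CPM in B-ALL hosts (log2 fold 2.89, 2.84 to 2.94). The median monocyte progenitor was at 94.5 CPM in the control and 1115 CPM in B-ALL hosts, and the upper 10% of control cells began at 520.5 CPM, above the lowest 10% of B-ALL hosts, which ended at 337 CPM. After thinning, 33.3% of control and 90.4% of B-ALL host monocyte progenitors had a UMI of it, against 34.3% and 78.1% of erythroid cells. Whether erythroid cells express the gene themselves was not tested, so their share cannot serve as a background for it. Ifitm3, a family member, was at 407 and 649 CPM (log2 fold 0.67).

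Serpina3g, an intracellular protease inhibitor, was at 20.5 and 86.6 CPM (log2 fold 2.08, 1.93 to 2.23). After thinning, Serpina3g was seen in 5.69% and 19.9% of monocyte progenitors and in 2.855% and 66.4% of erythroid cells. The part of RNA shared between cells in this value was not tested. Pim1, a kinase gene that STAT factors activate downstream of cytokine receptors, was at 139 and 451 CPM (1.70, 1.64 to 1.76). Its thinned shares were 32.2% and 69.2% of monocyte progenitors and 28.5% and 57.55% of erythroid cells. Bcl3, a nuclear IkB protein that joins NF-kB dimers, was at 5.36 and 17.7 CPM (1.73, 1.42 to 2.04). Wfdc17 was at 14.9 and 56.4 CPM (log2 fold 1.92), Ffar2, a receptor of short-chain fatty acids, at 20.1 and 67.8 CPM (1.75), and Selp, the adhesion receptor P-selectin, at 8.33 and 22.03 CPM (1.40). Lcn2, which encodes the iron-sequestering granule protein lipocalin 2, was at 10.9 and 34.2 CPM (1.65), and Emilin2, an extracellular matrix glycoprotein, at 24.5 and 59.7 CPM (1.29). In each of the 5 classes of marker number Ifitm1, Serpina3g, Pim1, Bcl3, Wfdc17, Lcn2 and Emilin2 were higher in B-ALL hosts. The log2 fold of Ifitm1 ran from 2.79 to 3.01 across the classes and that of Pim1 from 1.41 to 2.00.

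Of 32 genes of monocyte maturation 23 had at least 10 CPM, of which 3 were past 1.5-fold higher and 3 past 1.5-fold lower, beside 1.23% and 1.71% of all tested genes. The median log2 fold was -0.05. Ly6c2 was at 706 CPM in the control and 411 CPM in B-ALL hosts (log2 fold -0.78, -0.82 to -0.74), and in the 5 classes of marker number its fold lay between -1.40 and -0.59. After thinning, Ly6c2 was seen in 57.5% and 47.1% of monocyte progenitors and in 5.30% and 0.570% of erythroid cells. Slpi, an inhibitor of leukocyte proteases, was at 342 and 119 CPM (-1.52), and Fcgr3, an Fc receptor of IgG, at 70.9 and 45.0 CPM (-0.66). On the other side were a pair of calcium-binding proteins: S100a4 was at 7.65 and 27.6 CPM (1.85) and S100a6 at 15.2 and 36.3 CPM (1.25). Cybb was at 26.4 and 43.9 CPM (0.73). After thinning, S100a4 was seen in 1.92% and 6.53% of monocyte progenitors and 0.272% and 5.13% of erythroid cells. For S100a6 the percentages were 3.48 and 8.16 against 0.816 and 8.55. S100a4 was not higher in every class: among cells with 4 markers its log2 fold was -0.18. The levels of the 7 rule markers are partly fixed by the choice of cells and are given as a description. They ran from F13a1 at 416.5 and 286.5 CPM (log2 fold -0.54) to Ccr2 at 127 and 146 CPM (0.20), and within the classes of marker number the fold of F13a1 lay between -1.75 and -0.49.

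Granule genes as a list were near the background, with 1 of 17 tested past 1.5-fold and a median log2 fold of -0.15, but its abundant members differed in sign. Ctsg, which encodes cathepsin G, was at 3371 CPM in the control and 2096 CPM in B-ALL hosts (-0.69, -0.70 to -0.67). Elane was at 3605 and 2446 CPM (-0.56) and Mpo at 5635 and 3957 CPM (-0.51), both short of the threshold. Prtn3, which encodes proteinase 3, was at 6244 and 7084 CPM (0.18), and Ms4a3, a marker of the granulocyte-monocyte path, at 538 and 692 CPM (0.36). After thinning, erythroid cells with a UMI made up 37.4% in the control and 6.55% in B-ALL hosts for Ctsg. For Mpo the percentages were 37.8 and 9.12, for Prtn3 48.06 and 30.8, and for Ms4a3 11.01 and 7.12. The part of RNA shared between cells in these folds was not tested. Prtn3 and Elane start 6645 bases apart on chromosome 10, and in each of the 5 classes of marker number Prtn3 had a positive fold (0.08 to 0.35) and Elane a negative one (-0.90 to -0.25). Elane was at 6693 and 6294 CPM in neutrophil progenitors (log2 fold -0.09) and at 553 and 775 CPM in early granulocyte-monocyte progenitors (0.49).

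To show the control regions of these genes, the 250 bases before the start are printed for 3 granule genes and Ly6c2, as given by RefSeq on GRCm38.p6. Capitals mark the letters GAGGAAGT, a form of the site of PU.1, searched on both strands. They occurred in 4 of 14 granule genes with a promoter in the table (28.6%), Ctsc being the fourth, and in 2.97% of 6706 tested genes. Among 81 higher genes with a promoter 0 held them, and among 73 lower genes 5 (6.85%). Over the whole table they occurred in 2.79% of 27025 genes and in 2.44% of 32851 promoters. Also searched on both strands were the letters TTGCNNAA, a form of the site of C/EBP factors. They occurred in 13 of the 81 higher genes, 9 of the 73 lower genes and 587 of the 6706 tested genes. By list, 5 of 21 monocyte maturation genes (Slpi and Fcgr3 among them), 2 of 14 granule genes and 1 of 11 interferon gamma genes held them. The STAT letters, described below, occurred in 3 of the 14 granule genes, among them Ctsg. The genes shown were chosen after their values were seen, and a match is a string of letters, not a measured site. A position is that of the first base of the match, -1 being the last base before the start. Elane lies at chr10:79886062-79886311 on the plus strand with its match at -85, Prtn3 at chr10:79879417-79879666 on the plus strand (-95), Mpo at chr11:87793534-87793783 on the plus strand (-224) and Ly6c2 at chr15:75111972-75112221 on the minus strand (-108, at the first of its listed starts).
Elane: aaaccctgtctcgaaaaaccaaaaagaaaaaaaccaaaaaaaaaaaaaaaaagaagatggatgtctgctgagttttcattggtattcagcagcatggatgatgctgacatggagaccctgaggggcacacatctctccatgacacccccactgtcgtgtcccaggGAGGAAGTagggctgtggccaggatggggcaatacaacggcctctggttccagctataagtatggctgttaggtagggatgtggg
Prtn3: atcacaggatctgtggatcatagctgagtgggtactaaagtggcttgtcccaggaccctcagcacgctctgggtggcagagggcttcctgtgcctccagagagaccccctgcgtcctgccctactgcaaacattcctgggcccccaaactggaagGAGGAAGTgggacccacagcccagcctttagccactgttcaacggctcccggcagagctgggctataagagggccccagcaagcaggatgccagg
Mpo: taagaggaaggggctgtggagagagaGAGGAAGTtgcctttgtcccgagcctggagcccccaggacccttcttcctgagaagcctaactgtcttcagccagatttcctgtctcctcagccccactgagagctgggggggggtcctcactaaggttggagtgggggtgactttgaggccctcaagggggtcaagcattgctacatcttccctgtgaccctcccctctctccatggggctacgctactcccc
Ly6c2: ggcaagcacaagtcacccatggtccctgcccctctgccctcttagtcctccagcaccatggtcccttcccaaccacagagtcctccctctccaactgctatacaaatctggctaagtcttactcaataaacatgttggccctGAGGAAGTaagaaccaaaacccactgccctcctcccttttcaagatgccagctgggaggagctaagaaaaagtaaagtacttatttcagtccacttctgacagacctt
Elane and Prtn3 hold the same letters at a like distance from their starts. Any part of the letters in the folds of these genes was not tested.

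Of 36 transcription factors of the myeloid and monocyte path 20 were tested, with a median log2 fold of -0.04. In this list 2 were higher and 0 lower, beside 1.23% and 1.71% of all tested genes. Cebpb, a factor of emergency myelopoiesis, was at 111 CPM in the control and 200.2 CPM in B-ALL hosts (0.85, 0.77 to 0.92), and within the classes of marker number its fold lay between 0.75 and 0.87. Id1, an inhibitor of helix-loop-helix factors, was at 12.8 and 26.2 CPM (1.03). Myc was at 183.5 and 251 CPM (0.45) and Stat3 at 57.0 and 77.7 CPM (0.45), both short of the threshold. Spi1 was at 314.5 and 328 CPM (0.06) and Cebpa at 110.1 and 95.1 CPM (-0.21). Irf8, a rule marker whose level the choice of cells partly fixes, was at 462 and 443.5 CPM (-0.06), and its fold was negative in each of the 5 classes, from -0.52 to -0.02. Cebpe, which is counted among the neutrophil markers and not in this list, at 63.0 and 40.5 CPM (-0.64), was past the threshold over all members and at 13.5 CPM in both groups among those with 7 markers. Klf4, which drives monocyte maturation, was below the level filter, at 5.13 and 10.4 CPM.

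Among 28 receptors of growth factors and cytokines 21 were tested, and 3 were higher and 1 lower, beside 1.23% and 1.71% of all tested genes. Csf2rb, the signalling chain shared by the receptors of GM-CSF, IL-3 and IL-5, was at 44.8 and 93.9 CPM (log2 fold 1.07, 0.95 to 1.18). Il4ra, the IL-4 receptor chain, was at 20.1 and 36.7 CPM (0.87), and Il1r1, the IL-1 receptor, at 8.01 and 12.5 CPM (0.64). Kit was the lower one, at 264 and 172.5 CPM (-0.62, -0.68 to -0.55). Csf1r, a rule marker given as a description, was at 68.9 and 68.2 CPM (-0.02), with folds of -0.21 to 0.59 in the classes. Ptprc, which encodes the CD45 antigen used in the sort, had a log2 fold of 0.18, and Ly6a, the stem cell antigen Sca-1, was below the level filter at 4.17 and 11.5 CPM. Of 24 cytokine feedback genes 11 were tested, with Pim1 higher and Spred2, a brake on RAS signalling, lower at 18.1 and 10.8 CPM (-0.75). Socs1, Socs2, Socs3 and Cish were below the level filter. After thinning they were seen in 0.995% and 2.68%, 0.0711% and 1.17%, 0.355% and 3.61%, and 0.569% and 1.28% of monocyte progenitors. In erythroid cells the percentages were 0.816 and 6.27, 0.816 and 6.27, 0.272 and 1.71, and 1.97 and 12.25.

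Of 36 type I interferon genes 16 were tested, of which 2, Ifitm1 and Ifitm3, were higher and 0 lower, beside 1.23% and 1.71% of all tested genes, and the median log2 fold was 0.06. Of 30 interferon gamma genes 13 were tested, with 4 higher and 1 lower, beside the same percentages, and a median of 0.13. The higher ones were Serpina3g, Icam1, an adhesion ligand of leukocyte integrins, at 11.7 and 21.3 CPM (0.87), and the guanylate-binding proteins Gbp5, at 11.8 and 20.3 CPM (0.79), and Gbp7, at 40.7 and 66.3 CPM (0.70). The lower one was Tap2, a subunit of the peptide transporter of MHC class I, at 150 and 91.96 CPM (-0.71). Psmb8, an immunoproteasome subunit, was at 998.5 and 787 CPM (-0.34).

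The same 250 bases are shown for the 4 higher genes of the interferon gamma list. Capitals mark TTCNNNGAA, the site of STAT factors, and GAAANNGAAA, the interferon-stimulated response element, each on both strands. The STAT letters occurred in 6 of 11 genes of that list with a promoter in the table (54.5%), namely these 4, Irf1 and Psmb8, of which the last had a negative fold. Among all 81 higher genes with a promoter 10 held them (12.3%), among 73 lower genes 6 (8.22%), and among tested genes 6.77%. Over the whole table they occurred in 8.13% of genes and 7.02% of promoters, and the response element in 3.46% and 2.98%. The response element was held by 4 of the 11 list genes (36.4%). It occurred in 6 of the 81 higher genes (7.41%), 2 of the 73 lower genes (2.74%) and 3.09% of tested genes. Serpina3g lies at chr12:104235897-104236146 with the STAT letters at -33, Icam1 at chr9:21015690-21015939 (-42), Gbp5 at chr3:142496684-142496933 (-245 and -52) and Gbp7 at chr3:142530086-142530335 (-106 and -87), all on the plus strand. The response element stands at -165 in Gbp5 and at -53 in Gbp7.
Serpina3g: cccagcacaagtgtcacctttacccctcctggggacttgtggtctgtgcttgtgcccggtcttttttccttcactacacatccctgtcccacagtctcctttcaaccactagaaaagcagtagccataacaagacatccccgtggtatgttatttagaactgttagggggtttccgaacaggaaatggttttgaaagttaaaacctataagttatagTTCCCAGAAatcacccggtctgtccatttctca
Icam1: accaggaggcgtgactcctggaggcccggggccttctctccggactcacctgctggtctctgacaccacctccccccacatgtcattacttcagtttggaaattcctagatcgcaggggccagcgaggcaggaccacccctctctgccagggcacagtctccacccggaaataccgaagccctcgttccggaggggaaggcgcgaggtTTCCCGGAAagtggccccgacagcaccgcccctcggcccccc
Gbp5: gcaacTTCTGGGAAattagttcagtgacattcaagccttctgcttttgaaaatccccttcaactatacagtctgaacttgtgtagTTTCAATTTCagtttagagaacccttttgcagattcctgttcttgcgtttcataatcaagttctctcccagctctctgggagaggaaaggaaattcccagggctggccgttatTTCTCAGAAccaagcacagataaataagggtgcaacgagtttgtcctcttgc
Gbp7: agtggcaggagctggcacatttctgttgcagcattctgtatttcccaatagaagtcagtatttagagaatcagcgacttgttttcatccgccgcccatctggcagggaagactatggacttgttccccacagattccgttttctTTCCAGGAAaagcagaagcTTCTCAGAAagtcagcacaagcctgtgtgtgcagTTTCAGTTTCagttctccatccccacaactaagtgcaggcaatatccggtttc
The promoter of Ifitm1, the gene with the highest fold, held none of these letters in its 250 bases. Whether such letters play a part in any fold was not tested.

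Of 32 TNF and NF-kB genes 18 were tested. Bcl3 and Icam1 were higher and Tnfaip2 was lower at 67.8 and 45.1 CPM (log2 fold -0.59), beside 1.23% and 1.71% of all tested genes. The median was 0.18 with 14 of 18 positive, beside 4415 of all 8308 tested genes. Among innate sensing genes 12 of 31 were tested. Myd88, the adaptor of Toll-like and IL-1 receptors, was higher at 18.2 and 35.8 CPM (0.98), while the lectin receptor Clec4d, at 22.5 and 14.3 CPM (-0.65), and the adaptor Dok3, at 32.6 and 21.4 CPM (-0.60), were lower. Among 19 MHC class I genes 18 were tested and Tap2 alone was past 1.5-fold. For class II, 5 of 13 were tested and Ifi30, a lysosomal thiol reductase of antigen processing, was higher at 24.5 and 54.5 CPM (1.15).

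Adhesion, phagocytosis and oxidase lists were close to even, and stand beside 1.23% of all tested genes higher and 1.71% lower. Of 19 tested genes of chemotaxis and adhesion, Cxcr4, which retains cells in the marrow, was higher at 64.6 and 100.3 CPM (0.64), and 0 were lower. Cx3cr1 was at 33.5 and 41.6 CPM (0.31). Of 28 tested genes of lysosome and phagocytosis 1 was past the threshold, the Fc receptor Fcgr3. In the oxidative burst list Cybb was higher and Prdx5, a peroxidase, lower at 336 and 223 CPM (-0.59), among 18 tested.

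Of 51 S phase genes 3 were past 1.5-fold higher, beside 1.23% of all tested genes, and 48 passed in neither direction. The median log2 fold was 0.18, with 40 of 51 positive, beside 4415 of all 8308 tested genes. Rrm2, a subunit of ribonucleotide reductase, was at 117 and 199 CPM (0.76), Ccne2 at 41.4 and 63.1 CPM (0.61) and Ccne1 at 28.9 and 43.7 CPM (0.60), the last pair being cyclins of entry into S phase. For G2 and mitosis 41 of 54 were positive with a median of 0.11 and 0 calls. Mki67 had a UMI in 72.4% of control and 81.2% of B-ALL host monocyte progenitors, whose median depths differ as given above. Of 16 tested cyclins and inhibitors of their kinases 0 were higher and 1 lower, with a median of 0.13. The lower one was Ccnd1, which encodes cyclin D1, at 45.6 and 10.3 CPM (-2.15, -2.38 to -1.92), lower in each of the 5 classes of marker number.

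Replication-dependent histone genes were the largest block of lower genes, a group picked after its values were seen. Of 60 such genes 36 were tested and 34 were past 1.5-fold lower, beside 1.71% of all tested genes, with a median log2 fold of -1.38. They thus made up 34 of the 142 lower genes, and 108 remain without them. Hist1h4h was at 224 CPM in the control and 34.7 CPM in B-ALL hosts (-2.69), and Hist1h4k at 20.7 and 1.75 CPM (-3.57). By class the medians were -0.77 for H1, -1.01 for H2A, -1.51 for H2B, -1.58 for H3 and -2.61 for H4. The 8 variant histone genes measured, such as H2afz, at 2926 and 3268 CPM, had a median of -0.04, and 1 of them, H1fx, was past 1.5-fold lower at 65.0 and 42.1 CPM (-0.63). As background, transcripts of the first group mostly lack the poly(A) tail that 3' kits prime on. The list was low in other cells too, where the medians were -1.13 in neutrophil progenitors, -1.40 in early granulocyte-monocyte progenitors and -1.24 in all other cells.

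In energy metabolism, 32 of 37 nuclear genes of respiratory complex I had a negative fold, with a median of -0.19 and 0 calls. Over all 8308 tested genes 3893 folds were negative and 4415 positive, and 1.23% were called higher and 1.71% lower. Of 13 mitochondrially encoded genes 10 were positive with a median of 0.24, mt-Co3, a subunit of cytochrome oxidase, reaching 5548 and 8023 CPM (0.53), while mt-Nd6, at 91.6 and 37.2 CPM (-1.30), and mt-Atp8, at 204 and 112 CPM (-0.86), were past the threshold on the lower side. Of 20 tested glycolysis genes Ldha, lactate dehydrogenase A, was higher at 684 and 1047 CPM (0.61), as was the glucose transporter Slc2a1 at 7.83 and 12.3 CPM (0.65), and the hexokinase Hk3 was lower at 107 and 61.6 CPM (-0.79). Ribosome biogenesis genes were positive in 25 of 33 (median 0.11) and chaperone genes in 18 of 21 (0.16), with 0 calls in both lists. The share of mitochondrial RNA moved with the groups in every set of cells, and its part in these values was not tested.

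**Figure D3:**
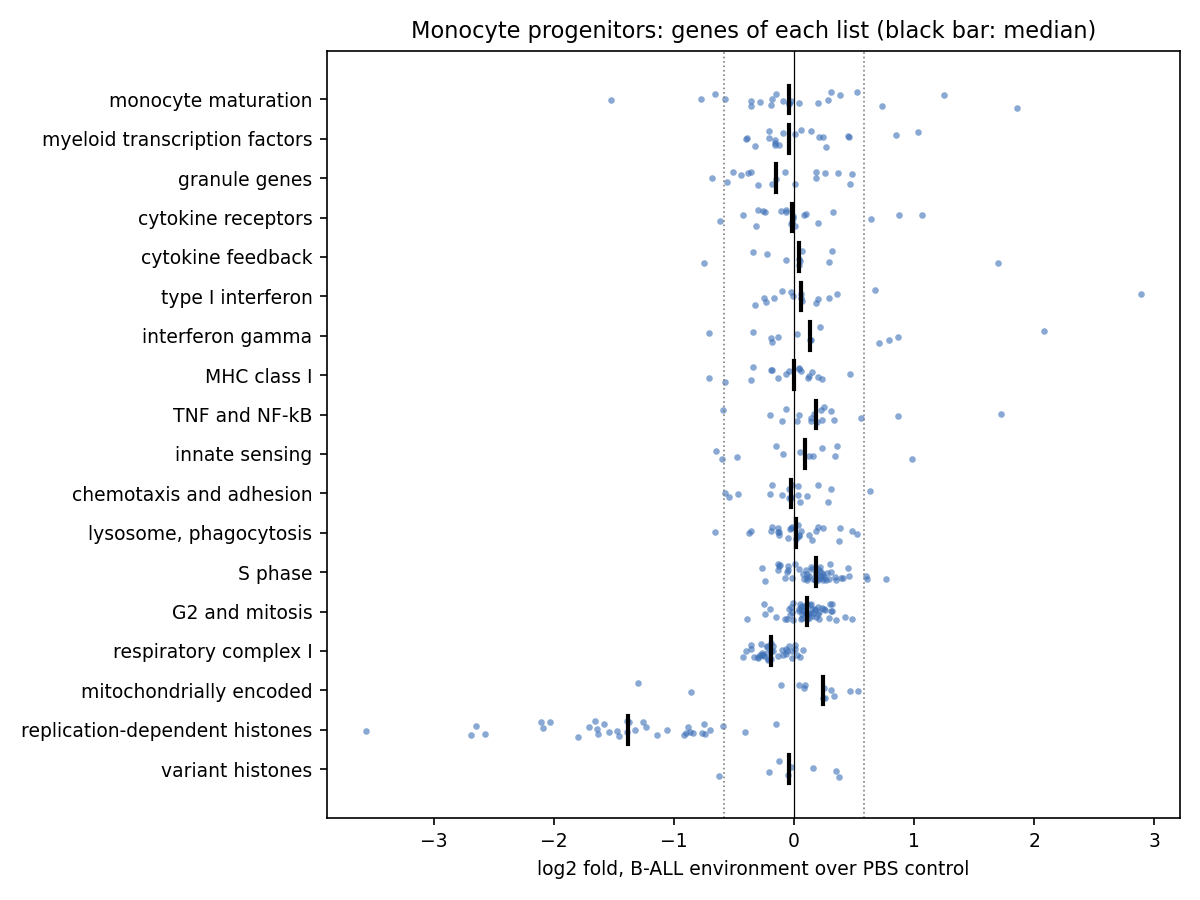
Log2 fold, B-ALL hosts over PBS control (x axis), of each tested gene (points) in 18 gene lists (y axis) within monocyte progenitors; black bars are list medians, dotted lines mark 1.5-fold, and points are spread vertically only for legibility. Replication-dependent histones have a median of -1.38, while the other medians lie between -0.19 and 0.24.

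Car1, a carbonic anhydrase of erythroid cells, had the lowest fold of all, at 66.1 CPM in the control and 2.84 CPM in B-ALL hosts (-4.54, -4.97 to -4.14). All 8 erythroid markers together summed to 94.9 and 6.29 CPM in the monocyte progenitors. Car1 was at 3448 and 1648 CPM in erythroid cells, of which there were 1471 in the control and 351 in B-ALL hosts. A UMI of Car1 was seen in 16.6% and 2.45% of the monocyte progenitors. Free erythroid RNA and cells of mixed identity were not told apart here, and their part in the value was not tested. The 6 megakaryocyte markers summed to 11.99 and 11.81 CPM, and the 7 stem cell markers to 38.3 and 62.5 CPM, of which Hlf, at 24.5 and 36.4 CPM, was the only one with 10 CPM. The mast cell gene Cpa3, which encodes carboxypeptidase A3, was at 52.6 and 24.9 CPM (-1.08). After thinning, Cpa3 was seen in 9.6% and 4.66% of monocyte progenitors and in 14.1% and 7.12% of erythroid cells. For Hlf the percentages were 7.39 and 10.1 against 4.01 and 10.3.

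Among the 10 lowest folds, the genes other than Car1, Ccnd1 and histone genes were Gm11505, at 34.1 and 5.14 CPM (-2.73), and AY036118, at 554 and 132 CPM (-2.06). Both differed by more in all other cells, where the log2 folds were -3.49 and -2.97. Outside those 10, Tsix was at 317 CPM in the control and 101 CPM in B-ALL hosts among cells with 3 markers. Among cells with 7 markers it was at 269 and 67.1 CPM.

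No gene of the lists of apoptosis and p53 (14 tested, median log2 fold -0.04), cholesterol synthesis (19, 0.18, with 15 positive) or respiratory complexes II to V (39, -0.05) was past 1.5-fold. Of 9 immediate early genes 1 was, Zfp36, which destabilizes cytokine messages. Of the T and NK cell markers only Nkg7, a granule membrane protein, had 10 CPM (log2 fold -0.39), and the lymphoid-primed markers summed to 67.7 and 81.0 CPM.

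The folds were then compared with those of neutrophil and early granulocyte-monocyte progenitors. Of 8007 genes with 10 CPM in the 3 sets, 9 (0.112%) had a fold at least 1.5 times above both neighbours and 10 (0.125%) at least 1.5 times below both. After thinning the numbers were 119 and 134, so the count depends on that choice. Without replicates the difference of folds has no test. The 5 with the widest gap on the lower side were Car1, Tmem71, Tmub1, Gm1673 and Zfp799, and apart from Car1 their levels lay between 10.11 and 29.99 CPM in monocyte progenitors. On the higher side stood Ighm, Cmpk2, Spire1, Gm21887 and Snx16. Ighm was at 157 and 147 CPM in monocyte progenitors (-0.10), at 20.3 and 4.94 CPM in neutrophil progenitors (-2.03) and at 34.9 and 18.5 CPM in early granulocyte-monocyte progenitors (-0.92). The other 4 were between 9.06 and 12.9 CPM in monocyte progenitors, a level of few UMIs.

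Ifitm1, Pim1, Cebpb and Csf2rb, picked after their values were seen, were higher in B-ALL hosts in the other sets too. How many of the 102 higher genes were so was not counted. Ifitm1 had log2 folds of 3.03 in neutrophil progenitors, 2.68 in early granulocyte-monocyte progenitors and 2.90 in all other cells. Pim1 had 1.79, 1.24 and 1.495, Cebpb 0.90, 0.81 and 0.81, and Csf2rb 1.80, 1.53 and 1.31. Of the levels, Ifitm1 in B-ALL hosts was at 1244 CPM in monocyte progenitors, 1349 CPM in neutrophil progenitors, 2852 CPM in early granulocyte-monocyte progenitors and 2680 CPM in all other cells. Serpina3g was at 86.6, 169, 346 and 451 CPM in the same sets. Monocyte progenitors had the lowest level of both genes among the 4 sets. S100a4 had a lower fold in monocyte progenitors (1.85) than in neutrophil progenitors (4.10), early granulocyte-monocyte progenitors (2.45) and other cells (3.52). In the control it was at 7.645 CPM in monocyte, 1.17 CPM in neutrophil and 5.045 CPM in early granulocyte-monocyte progenitors, levels of few UMIs. In B-ALL hosts the levels were 27.6, 20.0 and 27.5 CPM, so the fold depends on a low control value. These sets come from the same libraries, so the folds are set side by side and not counted as separate support.

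**Figure D4:**
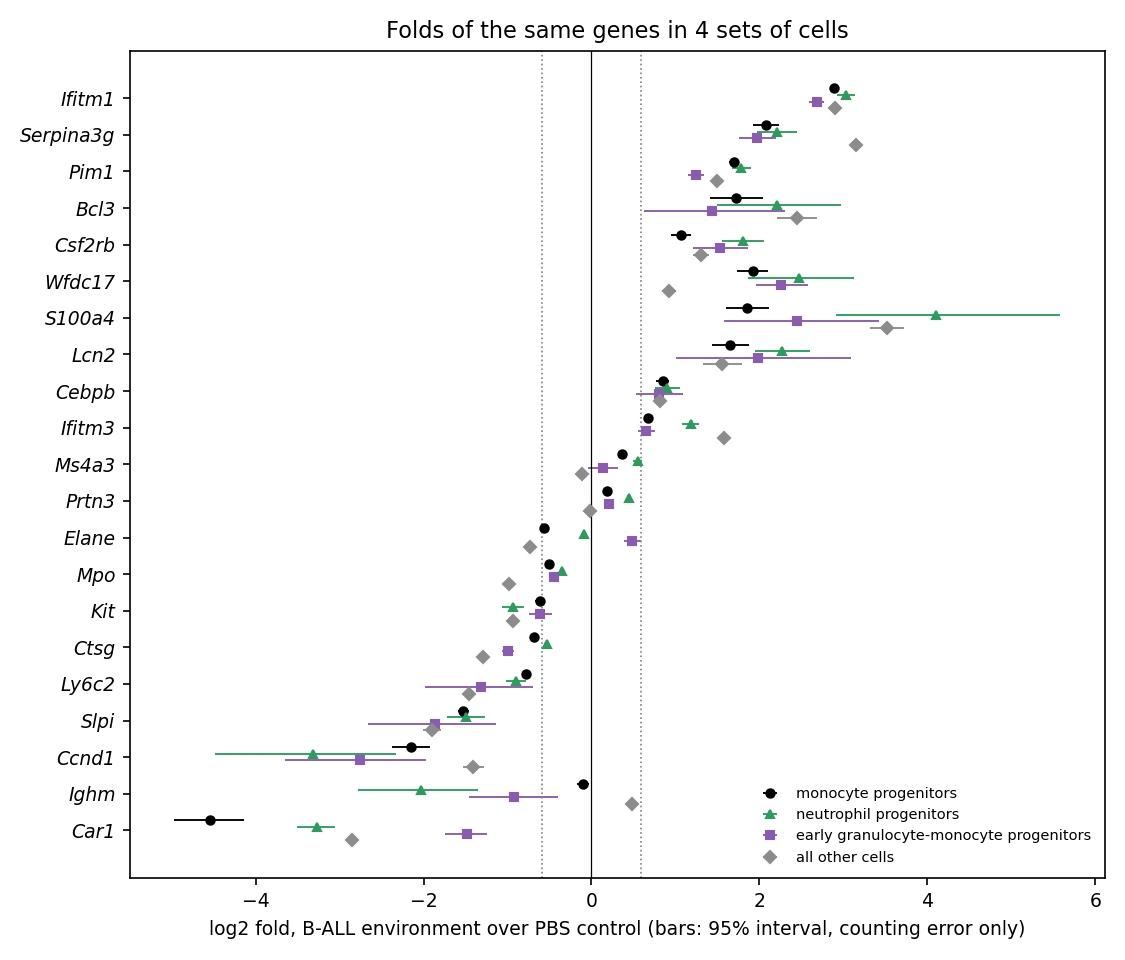
Log2 fold, B-ALL hosts over PBS control (x axis), of 21 genes in monocyte progenitors (circles), neutrophil progenitors (triangles), early granulocyte-monocyte progenitors (squares) and all other cells (diamonds); bars are exact 95% intervals for counting error, hidden by the symbol where narrow, and dotted lines mark 1.5-fold. Ifitm1 lies between 2.68 and 3.03 in the 4 sets, while Elane is negative in monocyte progenitors (-0.56) and positive in early granulocyte-monocyte progenitors (0.49).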

How the data were processed

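Host marrow cells of 2 groups were sequenced with the 10x Chromium 3' kit, version 3, per the labels' protocols. Cell Ranger 4, Seurat 4.0.1 and the mm10 assembly are named in the submitters' processing notes. The deposited matrix holds UMI counts per gene (13978 symbols) and cell, not normalized by the authors, and the authors' cell table gives other values per cell: total UMIs and map coordinates. Summing the matrix per cell gave the deposited total for 100% of cells. Filters on cells and genes, strand handling and doublet removal are not given in the sources used here, so genes that overlap or have near-identical copies (histones, Ifitm, Gbp) are uncertain. No doublet caller was run. The rule excludes cells with Dntt, Ms4a2 or Pf4, and an alternative leaves out the 5% of cells with the most UMIs. The abbreviated cell prefix that does not read PBS was assigned to the B-ALL environment.

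UMI sums of each set and group were brought to 1 scale with the TMM factors of edgeR 4.0.16 (R 4.3.3). A positive log2 fold means a higher level in B-ALL hosts, and its exact conditional interval at 95% came from scipy 1.17.1 (numpy 2.4.6, pandas 2.3.3), and shares have exact Clopper-Pearson intervals. A gene was called at 1.5-fold with a mean of at least 10 CPM. The 2 labelled samples of a group could not be told apart, so each group was treated as 1 sample without a test over samples, and intervals cover counting error only, since cells of a sample are not replicates. Erythroid cells were those with at least 3 of 8 erythroid markers. Thinning drew the minimum depth from each cell (seed 1). The fold calculation was checked on simulated data. DESeq2 1.42.0 gave alternative size factors. Python 3.11.15, scikit-learn 1.9.0 and matplotlib 3.10.9 did the rest.

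Named genes were the 7 markers, the 10 highest and 10 lowest folds, the 15 genes most concentrated in the cells, up to 6 genes per list by size of fold, the 5 genes in each direction that differed most from both neighbours, and Kit, Ptprc and Ly6a. Spi1, Cebpa, Prtn3, Klf4, Mki67, Irf1, Mirt1, Tsix, Socs1, Socs2, Socs3, Cish and lineage markers under 10 CPM were named outside it, after their values were seen. The cells, lists and genes were chosen with earlier results of these data known, so no list is independent support. Promoter sequences are those of RefSeq on GRCm38.p6 and matched 6706 of 8308 tested genes.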

Additional observations from a re-analysis of the deposited data

Results flagged for a closer look

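Mirt1, a long noncoding RNA gene, was past 1.5-fold in opposite directions in 2 neighbouring sets of cells. In monocyte progenitors it was at 14.6 CPM in the PBS control and 9.35 CPM in B-ALL hosts (log2 fold -0.64). In early granulocyte-monocyte progenitors it had 31 and 46 UMIs, a log2 fold of 0.59. The difference was not tested, since the samples of a group could not be told apart, and with so few UMIs the counting error is wide.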

How the results depend on the processing

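No paired analysis was possible because the cells carry no replicate number, and for the same reason no replicate could be left out. The ratio of shares, 0.630 as reported, was 0.562 when cells were thinned before the rule, 0.705 when cells were taken by their neighbours on the authors' map, and 0.564 without the 5% of cells with the most UMIs; the other 12 settings gave 0.610 to 0.657. The 102 higher and 142 lower genes became 25 and 46 with a mean of at least 50 CPM, and 1003 and 1368 with every gene that had a UMI in both groups, which test fewer and more genes. They became 242 and 309 after thinning, 23 and 46 at a fold of 2, and 1840 and 2088 without cells with a UMI of Cebpe, Elane or Flt3, which leaves 33 cells. Scaling by total UMIs or DESeq2 size factors gave 99 and 148 or 101 and 142, with all 99 or 101 higher genes among the 102. Members with all 7 markers, an alternative added after the data were seen, gave 115 and 189, of which 61 and 113 were shared; leaving out shared barcodes or histone genes was added in the same way. The 9 and 10 genes apart from both neighbours became 119 and 134 after thinning. The 33 remaining cells turned the log2 folds of Gbp5 to -1.87, Ccne1 to -1.09, Ly6c2 to 0.72, Itga1 to 0.72 and Gm1673 to 1.46, and members with all 7 markers turned Cebpe to 0.014. Where no construction is named, the cause was not tested. Depth limits the neighbouring sets most, with 2508323 to 5062577 UMIs per group, and a library or mouse effect cannot be told apart from the leukemia.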
